A study of Homo sapiens with 2 samples.

Results

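The genes described here belong to the pathway of type I interferon, as carriers of its signal, as regulators of interferon or target genes, or as an inhibitor. They are the kinases JAK1 and TYK2, the transcription factors STAT2, IRF1, IRF2, IRF3, IRF7 and IRF9, and the inhibitor SOCS1. These 9 genes were represented by 10 probes, out of 42405 on the array, chosen as all probes whose RefSeq accession belongs to one of the genes. RNA from RWPE-1, an established noncancerous epithelial cell line of the human prostate grown in keratinocyte serum-free medium, was compared after transfection with pre-miR-424 or with Negative control #1, each at 30 nM. Pre-miR-424 is a synthetic precursor from which cells make the microRNA miR-424, and the negative control is a precursor meant to have no microRNA activity. One array carried the pre-miR-424 RNA in Cy5 and the control RNA in Cy3, and the other was its dye swap. The design text calls the arrays technical replicates, so that they counted as 1 replicate and no p-value could be given. Spreads between the arrays therefore cover labelling and hybridisation only. The time after transfection is not given in the sources used here, and a single cell line was studied.

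In this pathway, type I interferon binds a receptor whose subunits hold JAK1 and TYK2. The kinases phosphorylate STAT2, which together with IRF9 is part of the complex ISGF3, and ISGF3 binds the interferon-stimulated response element (ISRE) of its target genes. IRF3 and IRF7 act upstream as activators of the interferon genes after foreign RNA or DNA is sensed, IRF1 activates and IRF2 commonly represses genes with related elements, and SOCS1 blocks the kinases. STAT2, IRF9 and IRF7 are themselves known as interferon-induced genes, whereas IRF3 is known to be made at a steady level and regulated by phosphorylation.

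The sequence of the delivered microRNA is shown because its seed, bases 2 to 8 (in capitals), sets which messages it can pair with. The seed is shared with miR-15a, miR-15b, miR-16, miR-195, miR-497 and miR-6838 among the mature human microRNAs of RefSeq (GRCh38.p14), and not with the opposite arm of the same precursor. No target site in a member gene was searched for.
hsa-miR-424-5p: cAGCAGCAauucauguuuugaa
hsa-miR-16-5p: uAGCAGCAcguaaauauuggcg
hsa-miR-15a-5p: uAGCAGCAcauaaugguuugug
hsa-miR-497-5p: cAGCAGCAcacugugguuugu
hsa-miR-424-3p: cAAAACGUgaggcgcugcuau

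Each array held 42405 different probes, and 25664 of them, for 13812 genes, passed the filter, which asked for signal well above background in each of the 4 channels and no outlier spot. The median spot signal ranged from 165 to 189 in Cy3 and from 290 to 314 in Cy5, over median local backgrounds of 28 to 29 and 69 to 70, and no spot was saturated. The error of a single array, taken from the difference between the arrays, had an SD of 0.24 on the log2 scale over all measured probes and of 0.29 over the 7952 probes with a mean log2 level of at least 11. All 8 epithelial markers, KRT5, KRT14, TP63, KRT8, KRT18, CDH1, EPCAM and ITGA6, were well above background. So were 3 of 4 leukocyte markers (PTPRC, CD79A and CD14, but not CD3E), 1 of 3 endothelial markers (CDH5) and 2 of 3 fibroblast markers (COL1A1 and COL3A1). The summed level of the 4 leukocyte markers, CD3E included, was 4034 with pre-miR-424 and 3698 in control on the normal array, and 3638 and 4104 on the swap. For the epithelial markers the sums were 429654 and 372144 on the normal array, and 329719 and 459120 on the swap. Those of the endothelial markers lay between 410 and 432, and those of the fibroblast markers between 634 and 708. The part of other cell types in the results was not tested.

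All 10 member probes had signal well above background in each of the 4 channels, so that each of the 9 genes was measured, and none had an outlier spot. IRF7 and IRF9 rose with pre-miR-424 by at least 1.5-fold on both arrays, and STAT2 stood just under that threshold on 1 of them. IRF1 was higher on 1 array only, and IRF2, IRF3, SOCS1, JAK1 and TYK2 lay near 0 or differed in sign between the arrays. No member was lower by 1.5-fold, as 0.391% of all measured genes were. The count of 2 of 9 genes higher (22.2%) stands beside 86 of 13812 measured genes, or 0.623%, that were at least 1.5-fold higher on both arrays. Both calls were lost with median centring instead of loess (0 members, beside 0.340% of all measured genes), where the swap gave 0.40 for IRF7 and 0.33 for IRF9 and a median over all genes of −0.23. At a threshold of 25% above control the count was 3 of 9 (33.3%), with STAT2 as the third gene, beside 2.38% of all measured genes, and at 2-fold it was 0, beside 0.0724%. As these genes were picked with earlier results of the arrays known, the counts describe the set and are not a test of it. In bulk RNA such as this, more responding cells and more RNA per cell cannot be told apart.

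**Figure D1:**
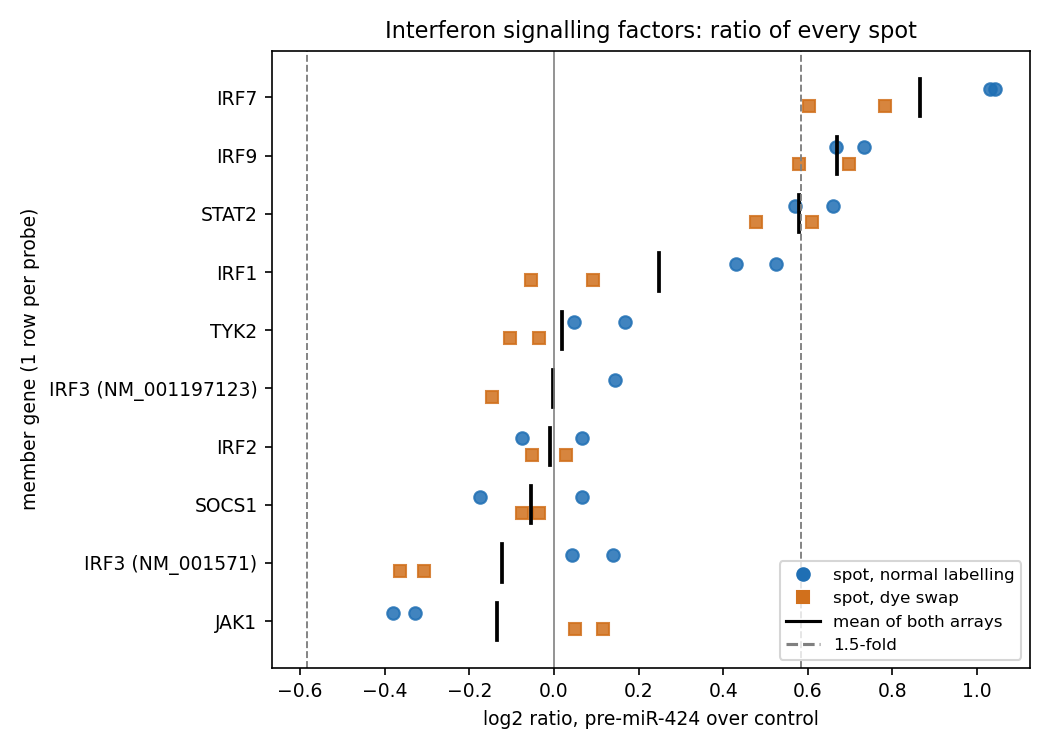
Log2 ratio of pre-miR-424 over control (x axis) for every spot of the 10 member probes (1 row each), with circles for normal labelling, squares for the dye swap and a black bar for the mean of both arrays. All spots of IRF7, IRF9 and STAT2 lie between 0.48 and 1.04, whereas spots of the other genes lie between −0.38 and 0.53, with dashed lines at 1.5-fold.

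Levels are given below as normalised intensity, which can be compared between RNAs for the same probe but not between probes. The DNA-binding subunit of ISGF3, IRF9 (NM_006084), had a level of 7054 with pre-miR-424 and 4343 in control on the normal array, and of 6700.4 and 4306 on the swap. The level was thus higher with pre-miR-424 under either dye. The log2 ratios were 0.70 and 0.64 (mean 0.67, SD 0.044 between the arrays, 1.59-fold). The part of the ratio that followed the dye was 0.031, against an SD of 0.17 over all measured probes and of 0.21 over those with a mean log2 level of at least 11. Only 129 of 25664 measured probes (0.503%) had a mean ratio at least as high.

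STAT2 (NM_005419), the activating subunit of ISGF3, showed a similar difference. Its level was 6118 with pre-miR-424 and 3993 in control on the normal array, and 6355 and 4358.5 on the swap. Log2 ratios of 0.62 and 0.54 (mean 0.580, SD 0.051, 1.49-fold) lay on either side of the threshold, which is 0.585 on the log2 scale. The size of the STAT2 difference was thus close to that of IRF9, which exceeded it by 0.084 and 0.094 on the arrays. This excess was about as large as the median gap of 0.093 between spots of the same member probe on 1 array. The spots of IRF9 and STAT2 overlapped on the swap and lay side by side without overlap on the normal array.

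IRF7 (NM_004031), the interferon-induced activator of interferon genes, had the highest ratio of the set. The level was 5884 with pre-miR-424 and 2866 in control on the normal array, and 5106 and 3158 on the swap. The arrays agreed in direction but differed in size, so that pre-miR-424 exceeded control by unequal amounts. On the log2 scale the ratios were 1.04 and 0.69 (mean 0.87, SD 0.24, 1.82-fold), and 45 measured probes (0.175%) had a mean at least as high. Both spots agreed on the normal array, with 1.04 and 1.03, while they gave 0.78 and 0.60 on the swap. The dye component of IRF7, 0.17, was as large as the SD of all measured probes. That SD was 0.21 over the probes with a mean log2 level of at least 11, to which IRF7 belongs. IRF7 exceeded IRF9 by 0.34 on the normal array and by 0.055 on the swap (mean 0.20, SD 0.20), so that the order of these neighbours was not resolved beyond the spread between the arrays.

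For IRF3, the constitutive relative of IRF7, the arrays disagreed in sign at both probes. Its single-spot probe (NM_001197123) gave levels of 3789 with pre-miR-424 and 3426 in control on the normal array, and of 3048 and 3376 on the swap. Its other probe (NM_001571) gave 2129.6 and 1999 on the normal array, and 1842 and 2323 on the swap. Both probes were thus slightly higher in Cy5 whichever RNA it labelled. For the first probe the log2 ratios were 0.15 and −0.15 (mean −0.0011, SD 0.21) and for the second they were 0.092 and −0.34 (mean −0.12, SD 0.30). The relatives IRF7 and IRF3 differed on each array, by 0.89 and 0.84 on the log2 scale (mean 0.87, SD 0.037), a difference larger than the spread between the arrays.

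IRF1 (NM_002198), an activator that interferon-gamma in particular induces, differed in size between the arrays. Its level was 2663 with pre-miR-424 and 1911 in control on the normal array, and 2058 and 2032 on the swap. Only the normal array separated the RNAs. IRF1 gave log2 ratios of 0.48 and 0.019 (mean 0.25), whose SD of 0.32 exceeded their mean, so that no difference of IRF1 was resolved. IRF9 exceeded IRF1 by 0.22 and 0.62 on the arrays, and STAT2 exceeded it by 0.14 and 0.53, in the same direction on both but by unequal amounts.

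IRF2 (NM_002199), which competes with IRF1 for its elements, was the dimmest of the probes of the set, with raw signals from 104 to 201 over local backgrounds from 27 to 71. Its level was 143 in either RNA on the normal array, and 147 with pre-miR-424 and 149 in control on the swap. These levels nearly coincided, with log2 ratios of −0.0044 and −0.012 (mean −0.0083, SD 0.0055), and IRF9 exceeded IRF2 by 0.70 and 0.65. As the background correction draws the ratios of dim probes towards 0, a small change of IRF2 would be understated.

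Neither kinase of the receptor kept the sign of its ratio between the arrays. JAK1 (NM_002227), which serves the receptors of several interferon types, had a level of 985 with pre-miR-424 and 1259.8 in control on the normal array, and of 1202 and 1135 on the swap. The arrays pointed in opposite directions, with log2 ratios of −0.35 and 0.083 (mean −0.14, SD 0.31). TYK2 (NM_003331), its partner at the type I receptor, had levels of 722 and 670.1 on the normal array and of 647 and 679 on the swap. Its log2 ratios, 0.11 and −0.070 (mean 0.019, SD 0.13), also changed sign with the labelling. STAT2 exceeded TYK2 by 0.51 and 0.61 and JAK1 by 0.97 and 0.46.

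SOCS1 (NM_003745), which binds the kinases and is itself interferon-induced in many cells, had a level of 298 with pre-miR-424 and 309.7 in control on the normal array, and of 293 and 304 on the swap. The RNAs differed little on either array, with log2 ratios of −0.053 and −0.054 (mean −0.054, SD 0.00064). On the normal array, however, its spots gave −0.17 and 0.067, so that the agreement of the arrays was closer than that of the spots. The raw signals of SOCS1 ranged from 200.5 to 408.5 and were dim, so that a small change would be understated, as for IRF2.

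**Figure D2:**
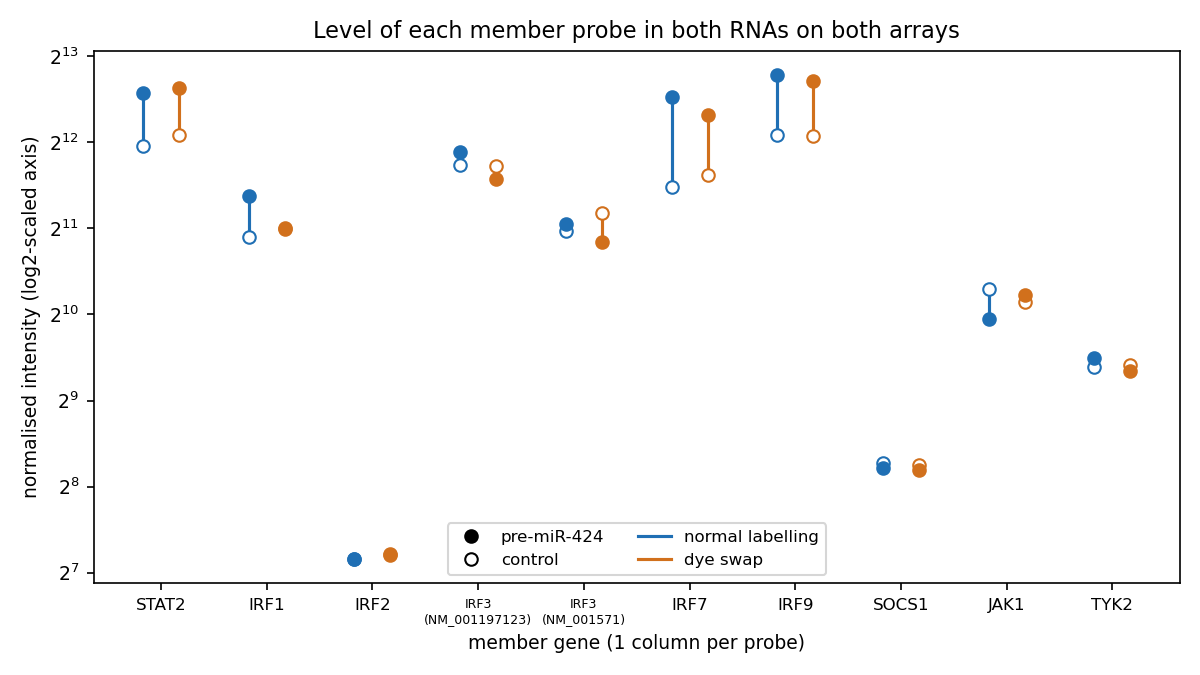
Normalised intensity (y axis, log2-scaled) of each member probe (x axis) with pre-miR-424 (filled circles) and in control (open circles), joined by a line for each array. For STAT2, IRF7 and IRF9 the filled circle lies above the open one on both arrays, as for IRF9 with 7054 over 4343 and 6700.4 over 4306.

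By mean log2 ratio the order was IRF7 (0.87), IRF9 (0.67), STAT2 (0.58), IRF1 (0.25), TYK2 (0.019), IRF3 by its brighter probe (−0.0011), IRF2 (−0.0083), SOCS1 (−0.054) and JAK1 (−0.14). STAT2 and IRF1 differed by a mean of 0.33 (SD 0.27) and IRF1 and TYK2 by 0.23 (SD 0.20), in the same direction on both arrays but barely beyond the spread between them. The differences of TYK2 from IRF3, of IRF3 from IRF2 and of SOCS1 from JAK1 changed sign between the arrays, and that of IRF2 from SOCS1, 0.049 and 0.042, was smaller than the median gap of 0.093 between spots of a member probe. No order was thus resolved from TYK2 downwards. Over the 9 genes the median was 0.019 (0.15 and 0.019 on the arrays), beside −0.0040 over all measured genes. With both arrays the median is the value of TYK2, the middle gene, and it does not describe IRF7, IRF9 and STAT2. Of the 7 probes of the other 6 genes, 4 had ratios of opposite sign on the arrays.

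**Figure D3:**
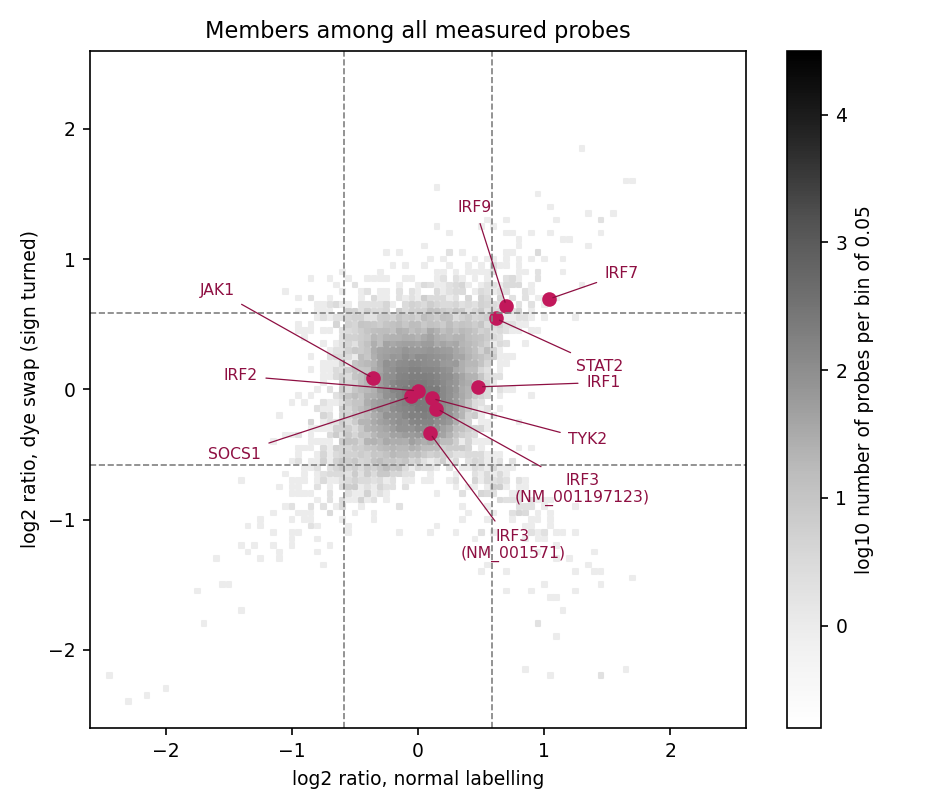
Log2 ratio on the normal array (x axis) against the dye swap with its sign turned (y axis), with all 25664 measured probes in grey bins of 0.05 and the 10 member probes as coloured circles. IRF7 (1.04 and 0.69) and IRF9 (0.70 and 0.64) lie above 1.5-fold (dashed lines) on both axes, STAT2 (0.62 and 0.54) on the x axis only, and the other member probes lie inside the dashed lines.

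The start regions of the members are shown because interferon-responsive genes commonly carry an ISRE, bound by ISGF3 and IRFs, or a GAS element, bound by STAT dimers. RefSeq sequences (GRCh38.p14) of 300 bases, 250 before and 50 after the start, were given for 6 of the 9 genes, while IRF2, IRF3 and IRF7 had no entry. Both strands were searched for an ISRE core, the letters GAAA repeated with any 2 bases between, and for GAS, TTC and GAA with any 3 bases between. The motifs could overlap in part, but no window shown held both. A match to the first was found in 3.57% and to the second in 7.66% of all 35116 windows. Capitals mark the matches in the windows of IRF9 (chr14:24161015-24161314, plus strand), STAT2 (chr12:56360058-56360357, minus strand), IRF1 (chr5:132490724-132491023, minus strand) and SOCS1 (chr16:11256155-11256454, minus strand).
IRF9: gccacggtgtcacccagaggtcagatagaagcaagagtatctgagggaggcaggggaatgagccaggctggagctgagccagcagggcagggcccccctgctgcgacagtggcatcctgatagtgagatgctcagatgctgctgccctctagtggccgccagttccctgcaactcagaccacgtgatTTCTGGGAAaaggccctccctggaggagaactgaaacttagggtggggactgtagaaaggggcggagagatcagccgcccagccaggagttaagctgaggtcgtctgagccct
STAT2: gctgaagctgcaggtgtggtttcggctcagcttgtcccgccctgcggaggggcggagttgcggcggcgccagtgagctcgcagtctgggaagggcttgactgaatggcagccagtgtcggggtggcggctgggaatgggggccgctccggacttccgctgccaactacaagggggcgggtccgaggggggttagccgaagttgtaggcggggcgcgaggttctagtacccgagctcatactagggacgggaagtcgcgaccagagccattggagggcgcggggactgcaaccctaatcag
IRF1: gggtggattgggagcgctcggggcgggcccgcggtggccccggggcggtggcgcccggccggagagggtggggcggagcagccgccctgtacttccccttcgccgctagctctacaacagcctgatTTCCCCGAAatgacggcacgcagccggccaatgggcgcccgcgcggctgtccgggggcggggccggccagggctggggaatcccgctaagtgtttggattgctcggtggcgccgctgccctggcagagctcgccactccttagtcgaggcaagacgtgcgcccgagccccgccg
SOCS1: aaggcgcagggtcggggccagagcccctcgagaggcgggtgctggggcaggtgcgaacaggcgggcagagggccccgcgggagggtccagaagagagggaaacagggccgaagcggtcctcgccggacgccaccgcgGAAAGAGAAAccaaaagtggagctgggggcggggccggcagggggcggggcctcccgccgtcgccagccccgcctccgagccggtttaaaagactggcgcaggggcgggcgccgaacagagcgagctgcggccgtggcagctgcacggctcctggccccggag

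The GAS letters were found in IRF9, beginning 63 bases before the start, and in IRF1, beginning 124 bases before it. The ISRE letters were found in SOCS1, 113 bases before the start. None of the letters searched was in the window of STAT2, in that of TYK2 or in the 3 windows of JAK1. Matches were thus present in genes with different ratios, namely IRF9 with a mean log2 ratio of 0.67, IRF1 with 0.25 and SOCS1 with −0.054, and STAT2 with 0.58 had none in this window. A match is a run of letters and not a shown binding site.

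The remaining factors of the pathway were followed in a list of 42 genes, which held further STAT, IRF, JAK, SOCS and PIAS genes, the receptor subunits, phosphatases and cofactors. Of these, 38 were measured, 1 had an outlier spot (PTPN6) and 3 were not well above background, namely IRF4 and IRF8, factors of blood cells, and the corepressor IRF2BP1. Only USP18 (2.63% of the 38) was higher by at least 1.5-fold on both arrays, beside 0.623% of all measured genes. Its call was lost with median centring. Of the list, 0 genes were lower and 37 were neither, and the median was 0.0035 (−0.056 and 0.066 on the arrays). Without regard to size, 13 genes (34.2%) were higher on both arrays, 11 (28.9%) were lower on both and 14 differed in sign, shares near the 26.8% higher and 26.7% lower over all measured genes.

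USP18 (NM_017414), a protease that removes ISG15 and holds back the interferon receptor through STAT2, had a level of 2286 with pre-miR-424 and 1279.97 in control on the normal array, and of 2266 and 1324 on the swap. The log2 ratios were 0.84 and 0.77 (mean 0.81, SD 0.044, 1.75-fold). This inhibitor thus rose, while no rise was measured for the inhibitor SOCS1, and USP18 exceeded SOCS1 by 0.89 and 0.83. The SOCS1 probe was dim, so that a small change of it would be understated. SOCS3 (NM_003955), an inhibitor known for its action on IL6 signals, had log2 ratios of −0.10 and −0.21 (mean −0.15, SD 0.075).

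STAT3 (NM_213662), a factor known for IL6 signals and singled out after its values were seen, gave 0.54 and 0.67 by its brightest probe (mean 0.60) and a mean of 0.32 by its other probe, so that the size depended on the probe.

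Target genes of the factors were followed in a pair of lists, drawn up from general knowledge with earlier results of these arrays known. The division of the genes by regulator was not tested. Of 32 genes known as ISGF3 targets, 29 were measured. At least 1.5-fold higher on both arrays were 14 (48.3%), beside 0.623% of all measured genes, while 0 were lower and 15 were neither. At a threshold of 25% above control 23 (79.3%) were higher, beside 2.38%, and without regard to size 28 (96.6%), beside 26.8%. The median log2 ratio of these targets was 0.74 (0.71 and 0.69 on the arrays, or 0.60 when the probes of a gene were averaged or outlier spots kept). With median centring 10 of the 29 passed 1.5-fold, beside 0.340% of all measured genes. The highest means were 1.65 for IFI44L, 1.63 for MX2 and 1.37 for CMPK2. MX1, also at 1.37 (SD 0.12), was not told apart from CMPK2, and OAS2 reached 1.44 by a dimmer probe but 0.91 by its brightest. The lowest mean was −0.030 for PML, the 1 gene whose sign differed between the arrays. The largest ratios among targets were thus larger than the ratio of any of the 9 signalling genes. IFI27 had no probe with a matching accession, and HERC5 and SP110 had outlier spots.

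Of 24 genes known as targets of IRF1 or of the GAS element, 19 were measured. At least 1.5-fold higher on both arrays were 2 (10.5%), beside 0.623% of all measured genes, while 0 were lower and 17 were neither. The same 2 passed with median centring, beside 0.340% of all measured genes. With 25% above control as the threshold, 3 (15.8%) were higher, beside 2.38%. Without regard to size, 14 (73.7%) were higher on both arrays, 0 were lower on both and 5 differed in sign. Over all measured genes, 26.8% were higher and 26.7% lower on both. The median of the list was 0.15 (0.22 and 0.13 on the arrays). Past 1.5-fold were the chemokine genes CXCL10 and CXCL11. CXCL10 had log2 ratios of 0.79 and 1.15 (mean 0.97) by its brightest probe and a mean of 0.78 by its other probe. CXCL11 had 0.93 and 0.88 (mean 0.90). Next came the GTPase gene GBP5, with 0.68 and 0.36 (mean 0.52). The lowest mean was that of the cytokine gene IL15 (−0.0077). Of the same list, CIITA, CXCL9, IDO1 and GBP2 were not well above background, and ICAM1 had an outlier spot.

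**Figure D4:**
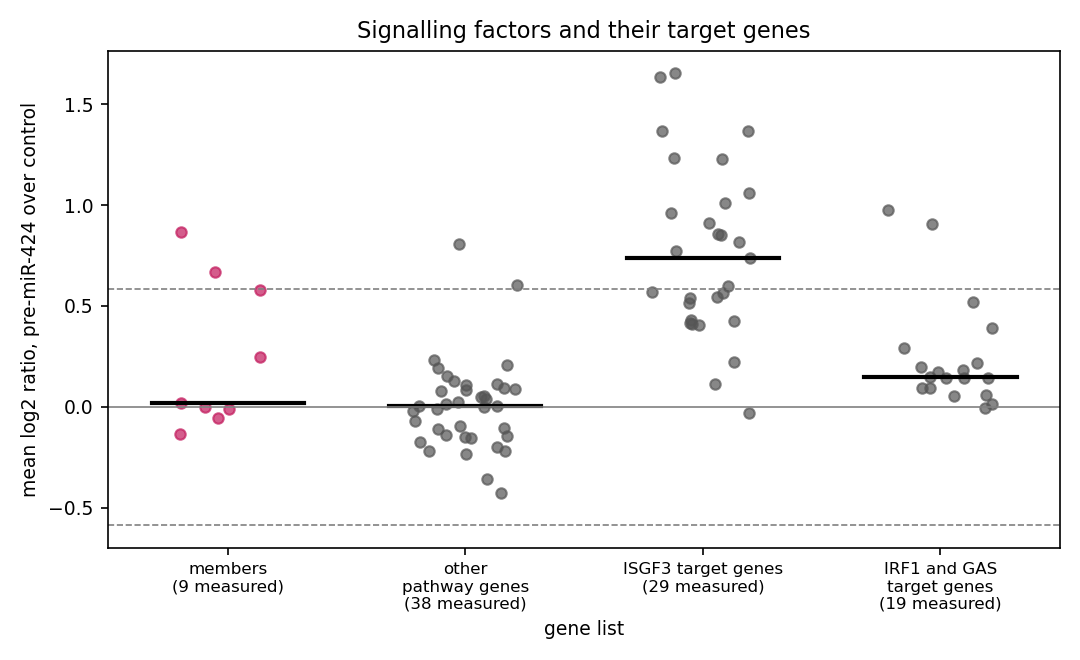
Mean log2 ratio of pre-miR-424 over control (y axis) for each measured gene of 4 lists (x axis), with black bars for the median and dashed lines at 1.5-fold. The median lies at 0.019 for the 9 signalling genes and at 0.0035 for 38 other pathway genes, at 0.74 for 29 ISGF3 targets and at 0.15 for 19 targets of IRF1 or GAS.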

How the data were processed

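RNA of RWPE-1 cells with pre-miR-424 or negative control was amplified by the authors, coupled to Cy3 or Cy5 and measured on 2 Agilent two-colour arrays with opposite dye orientation. Per the file headers, the deposited scanner files hold median spot and background intensity, not normalized, processed intensity that Feature Extraction had background-corrected and dye-normalized, its log10 ratio of Cy5 over Cy3, and 0 or 1 flags. A further deposited table gives log2 ratios by the authors, without their steps or direction. Set against Cy5 over Cy3 as computed here, its columns correlated across probes with Pearson's r of 0.991 and 0.988, the swap unturned (column medians 0.024 and 0.036).

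Median intensities were corrected by normexp (offset 50) on all spots, control spots were left out, and loess was applied within each array (limma 3.58.1, R 4.3.3). Aquantile scaling served for levels only. Spots of a probe were averaged and ratios turned to pre-miR-424 over control. A probe was measured when all 4 channels were well above background, as marked by the scanner software, without an outlier spot, and a gene took its brightest measured probe. Changed meant at least 1.5-fold on each array, in 1 direction. A symbol was found for 25771 of the 27134 RefSeq accessions of probes (GRCh38.p14 table, names only, as the array design uses hg19). Members, lists (from general knowledge) and threshold were chosen with earlier results of these data known. Named were the 9 members, other pathway genes past the threshold with USP18 and SOCS3, and the 3 highest genes and the lowest gene of each target list. STAT3, MX1 and OAS2 were named after their values were seen. 1 further gene of the pathway list is not reported here and was left out of its counts and median. The steps were also run on simulated data. Its planted changes were larger than the threshold and its error was smaller than that measured here. It therefore does not show how ratios near the threshold are called. Tables and plots were made with pandas 2.3.3, matplotlib 3.10.9 and numpy 2.4.6 in Python 3.11.15. The alternatives were another offset, no background correction, median centring, the software's and the authors' ratios, other filters, the mean over probes, each array alone and other thresholds.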

Additional observations from a re-analysis of the deposited data

How the results depend on the processing

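IRF7, IRF9 and STAT2 kept their direction under every alternative run, with log2 ratios from 0.69 to 1.04, from 0.61 to 0.70 and from 0.52 to 0.62, and so did USP18 (0.75 to 0.84). These ranges include each array alone, which gave both ends for IRF7 and the upper end for the others. As a mean of both arrays IRF7 ranged from 0.80 to 0.87. The count of 2 members changed was repeated, with IRF7 and IRF9 in each case, under an offset of 16, no background correction, the scanner software's ratios, the authors' ratios, no filter on dim probes, outlier spots kept, the mean over probes and a threshold on the mean. Several of these could not lose IRF7 or IRF9. Each has 1 probe, which passed the filter, so the other filters and the mean over probes left its ratio unchanged. A gene past the threshold on both arrays also passes on the mean. The authors' ratios were nearly those computed here (median absolute difference 0.00056 and 0.00079 on the arrays). The count was 3 at a threshold of 25% above control, 0 at 2-fold and 0 with median centring. That centring left the medians of all genes at 0.13 (normal array) and −0.23 (swap). Relative to them IRF7 gave 1.08 and 0.63, IRF9 0.76 and 0.56, and STAT2 0.66 and 0.47. With each array alone the count was 2 (swap, beside 1.76% of all measured genes higher) to 3 (normal array, beside 1.52%), STAT2 being the third gene. The member median then ranged from 0.019 to 0.15, the median over the 10 member probes from 0.0033 to 0.13 (0.0089 with both arrays) and that of the other pathway genes from −0.056 to 0.066. On the normal array alone the member median was 0.15 and the probe median 0.13; the cause was not tested. Genes past 1.5-fold numbered 86 higher and 54 lower, but 47 and 43 with median centring, 128 and 92 with the software's ratios, and 133 and 115 with the threshold on the mean. On a single array they numbered 210 and 171 (normal) or 243 and 276 (swap, where lower genes outnumbered higher ones). The mean spot signal was not analysed here. Dim probes (IRF2, SOCS1) are limited by signal over background. No paired analysis was possible because no result came from a test, and each ratio was already taken within an array.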
